A study of Mus musculus with 8 samples.

Results

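Collagens are secreted or membrane-bound proteins built from 3 chains wound into a triple helix. The genes described here encode the collagens other than type IV, the basement membrane network former. They comprise every probe set annotated to a single symbol of the form Col, number, a, number, apart from Col4a1 to Col4a6. The rule found 70 probe sets for 36 genes, out of 34945 probe sets with a single symbol for 18193 genes. A total of 48 of the 70 probe sets, for 30 genes, were bright enough to be tested.

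Fibrillar collagens (types I, II, III, V and XI among them) assemble into the fibrils that give connective tissue its tensile strength, and fibril-associated collagens bind to the surface of those fibrils. Type VI collagen forms beaded microfibrils, type VII forms anchoring fibrils, and type VIII forms short-chain networks. Fibroblasts, the cells used as feeders under embryonic stem cells, are a main source of types I, III, V and VI.

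The study used 8 Affymetrix arrays to follow mouse embryonic stem cells in which a short hairpin RNA (shRNA) targeted Rif1, whose protein acts at telomeres, replication origins and DNA breaks, beside cells given a control hairpin. J1 cells (129S4/SvJae) received control shRNA or Rif1 shRNA by lipofection and were collected 48 h later. F1 cells (C57BL/6xC3H) carried control shRNA or a stable Rif1 knockdown and were taken at passage 16. Each of the 4 groups had 2 arrays, and all cells were grown on feeder plates, so every RNA sample could hold feeder RNA. The F1 control arrays are labelled control shRNA under transfection, but their cell line label names the stable Rif1 knockdown line, and the treatment text speaks of virus or siRNA. Nothing states that the 2 arrays of a group came from separate cultures, so a p-value reflects just the variation among these arrays, which could be technical. J1 and F1 differ in strain, delivery and culture time, and these cannot be told apart.

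The deposited values are linear MAS5 signals, on which 1 probe set cannot be set against another, and on which F1 arrays ran brighter (trimmed mean 301 to 309) than J1 arrays (193 to 197). Levels are therefore given as deposited and compared within J1 or within F1. Fold changes are on log2(signal + 18) after quantile normalization across all arrays, which understates changes of dim probe sets. A gene passed at an adjusted p under 0.05 in limma, with the adjustment over all 31605 probe sets tested. The Rif1 signal was 2614 and 3222 on J1 control arrays and 1260 and 1297 on J1 Rif1 shRNA arrays, and in F1 it was 4231 and 4247 against 1339 and 1407. Rif1 thus fell in both settings, with log2 changes of -1.08 (limma adjusted p = 6.54e-05) and -1.74 (3.23e-07). All 12 pluripotent stem cell markers were tested, and their summed normalized signal lay between 52908 and 56589 on all 8 arrays. Taken singly, 6 of them fell and 1 rose in F1, beside 8.2% and 10.6% of all genes tested. In J1, 1 (Tfcp2l1) fell and 0 rose, beside 2.17% and 1.86%. Between the controls, 7 were higher and 3 lower in F1, beside 27.6% and 38.4%. The sum thus hides changes of single markers.

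Most collagens were dim. In 60 of the 70 probe sets the mean deposited signal was under 200 in every group, and 6 genes (Col10a1, Col17a1, Col19a1, Col24a1, Col5a3 and Col6a5) had no tested probe set, with signals of 7.34 to 45.6. Of the 30 tested genes, 20 lay above the 40th percentile of the array on all 8 arrays. Col11a1 and Col8a1 lay above it on the F1 Rif1 shRNA arrays alone, so these 2 entered the test through the group in which they are high. The 6 genes that reached a mean of 200 in any group were Col18a1, Col1a2, Col3a1, Col5a1, Col5a2 and Col6a3.

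In F1 cells with the stable Rif1 knockdown, 10 collagen genes rose and 1 fell. With the filter on dim probe sets removed, so that all 36 genes are counted, this is 27.8% higher against a background of 8.27% of all genes, and 2.78% lower against 5.91%. With the filter, 10 of 30 rose beside 10.6% of the 14714 genes tested, and 1 of 30 fell beside 8.2%. The genes that rose were the fibrillar Col1a2, Col3a1, Col5a1, Col5a2 and Col11a1, the type VI genes Col6a1, Col6a2 and Col6a3, the anchoring fibril gene Col7a1 and the network gene Col8a1. The gene that fell was Col18a1. Without F1 Rif1 shRNA replicate 1, 5 rose (Col1a2, Col3a1, Col5a1, Col5a2 and Col6a3), and these passed in every alternative run. In J1 cells 48 h after transfection, Col5a2 and Col18a1 fell.

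**Figure D1:**
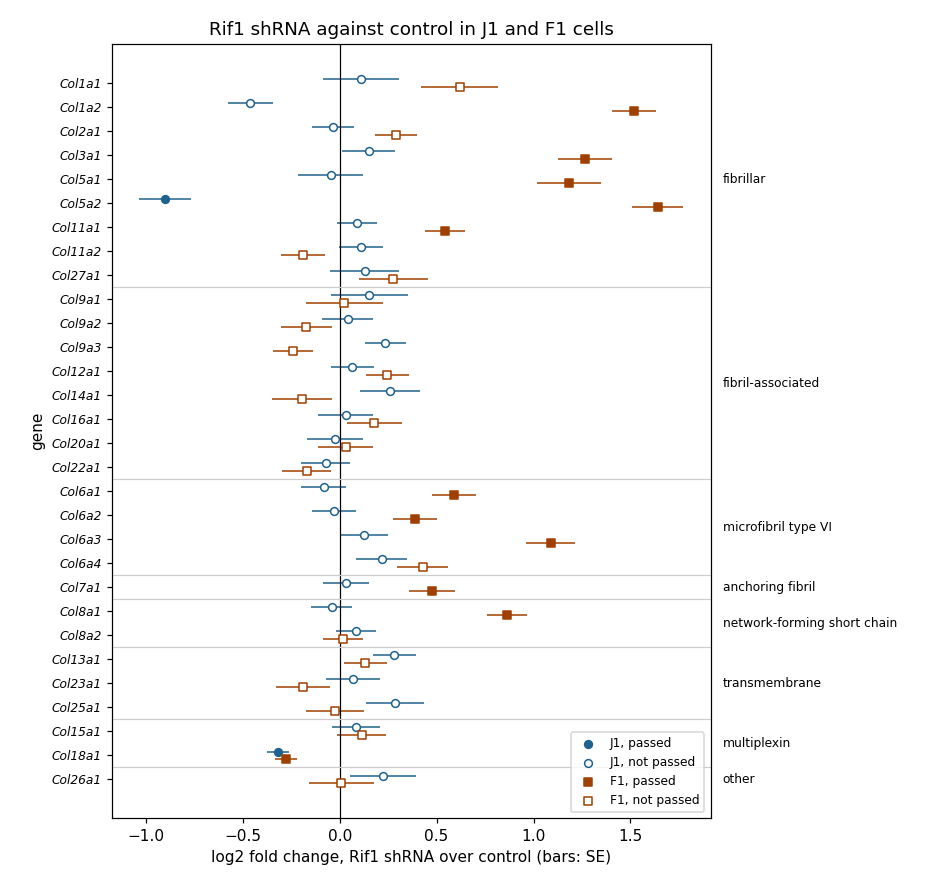
Log2 fold change of Rif1 shRNA over control for the 30 tested collagen genes, grouped by class (x axis, log2 units; bars, standard errors from limma; circles, J1; squares, F1; filled symbols, adjusted p under 0.05). In F1 5 of the 9 fibrillar genes and 3 of the 4 type VI genes are filled to the right of 0, whereas in J1 the filled symbols are Col5a2 and Col18a1, both to the left.

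The start regions of 4 genes that rose in F1 and of Col18a1, which fell, are printed so that they can be compared. Each is 250 bases before to 50 after the start of transcription, from RefSeq (GRCm38.p6), read 5′ to 3′ on the gene's own strand. Capitals mark matches, on either strand, to the TATA box searched as TATAAA, the CCAAT box, the GC box searched as GGGCGG, the AP-1 element searched as TGANTCA with N for any base, or the CArG box searched by its consensus. A match describes letters only. Col1a2 (chr6:4505368-4505667, plus strand) holds 2 CCAAT boxes and 2 GC boxes. Col3a1 (chr1:45311288-45311587, plus strand) holds 1 TATA box, Col5a1 (chr2:27886175-27886474, plus strand) 2 GC boxes, and Col6a3 (chr1:90843922-90844221, minus strand) none of the 5 motifs. Col18a1 has 2 annotated starts on the minus strand, chr10:77166481-77166780 with 1 CCAAT box and 3 GC boxes, and chr10:77113656-77113955 with none.
Col1a2: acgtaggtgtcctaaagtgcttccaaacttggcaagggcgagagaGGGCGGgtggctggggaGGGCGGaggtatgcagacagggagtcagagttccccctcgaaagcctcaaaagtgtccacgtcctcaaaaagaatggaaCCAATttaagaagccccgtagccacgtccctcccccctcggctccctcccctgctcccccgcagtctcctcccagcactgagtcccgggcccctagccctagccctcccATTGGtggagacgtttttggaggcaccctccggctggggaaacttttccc
Col3a1: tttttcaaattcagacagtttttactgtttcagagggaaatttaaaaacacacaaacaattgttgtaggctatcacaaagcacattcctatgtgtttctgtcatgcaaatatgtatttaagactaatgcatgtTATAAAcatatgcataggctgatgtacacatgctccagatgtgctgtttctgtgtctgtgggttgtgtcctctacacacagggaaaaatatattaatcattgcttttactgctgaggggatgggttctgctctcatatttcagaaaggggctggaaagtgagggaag
Col5a1: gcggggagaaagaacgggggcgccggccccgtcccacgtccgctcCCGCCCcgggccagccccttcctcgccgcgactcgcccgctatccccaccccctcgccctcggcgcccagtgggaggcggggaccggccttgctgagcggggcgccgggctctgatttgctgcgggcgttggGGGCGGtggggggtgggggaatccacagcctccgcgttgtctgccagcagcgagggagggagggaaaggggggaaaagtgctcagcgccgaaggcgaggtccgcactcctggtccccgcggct
Col6a3: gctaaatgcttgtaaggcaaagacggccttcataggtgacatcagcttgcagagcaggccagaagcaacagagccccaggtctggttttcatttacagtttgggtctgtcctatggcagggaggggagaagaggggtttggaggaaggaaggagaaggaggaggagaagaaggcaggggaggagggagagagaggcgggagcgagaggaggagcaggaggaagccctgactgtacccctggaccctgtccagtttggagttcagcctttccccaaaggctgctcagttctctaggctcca
Col18a1, first start: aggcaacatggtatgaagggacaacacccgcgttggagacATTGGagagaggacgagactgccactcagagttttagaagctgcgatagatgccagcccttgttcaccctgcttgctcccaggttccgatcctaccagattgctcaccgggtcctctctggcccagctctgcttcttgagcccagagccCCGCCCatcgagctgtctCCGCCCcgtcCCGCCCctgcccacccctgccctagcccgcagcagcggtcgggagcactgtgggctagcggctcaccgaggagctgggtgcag
Col18a1, second start: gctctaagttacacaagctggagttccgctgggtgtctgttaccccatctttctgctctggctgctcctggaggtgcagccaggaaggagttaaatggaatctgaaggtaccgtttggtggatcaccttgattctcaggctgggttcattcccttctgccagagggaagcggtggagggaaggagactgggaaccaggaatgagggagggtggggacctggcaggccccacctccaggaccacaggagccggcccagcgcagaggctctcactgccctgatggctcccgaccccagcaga

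The GC share of these windows ran from 37.7% in Col3a1 to 75.0% in Col5a1, beside a median of 52.7% over all 32851 windows and 59.7% over the 31 windows matched for 28 of the 36 collagen genes. The GC box occurred in 58.1% of collagen windows and 35.7% of all windows, the CCAAT box in 32.3% and 37.4%, the TATA box in 16.1% and 13.6%, the AP-1 element in 3.2% and 7.8%, and the CArG box in 3.2% and 1.6%.

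Among the fibrillar collagens, 5 genes rose in F1. They are 5 of the 11 with the filter removed (45.5%, beside 8.27% of all genes), counting the dim Col5a3 and Col24a1, and 5 of the 9 with it (beside 10.6%), where Col11a1 entered through the F1 Rif1 shRNA arrays. Col1a2 encodes the α2 chain of type I collagen, the main fibril of skin, bone and tendon. Its signal was 361 and 410 on the F1 control arrays and 1301 and 1168 on the F1 Rif1 shRNA arrays, while the J1 control arrays read 134 and 128 and the J1 Rif1 shRNA arrays 106 and 94.9. Both F1 Rif1 shRNA arrays were far above both F1 controls, and both J1 Rif1 shRNA arrays lay below both J1 controls. In F1 this was a log2 change of 1.52 (SE 0.115, 2.87-fold, limma adjusted p = 8.26e-06), and in J1 -0.46 (adjusted p = 0.0573), which did not pass. A second Col1a2 probe set gave 1.33 in F1 (adjusted p = 4.43e-05).

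Its partner Col1a1, the α1 chain of type I collagen, gave a less settled result. It read 98.3 and 106 on F1 control arrays, 213 and 167 on F1 Rif1 shRNA arrays, 124 and 101 on J1 control arrays, and 93.8 and 160 on J1 Rif1 shRNA arrays. The F1 groups did not overlap, whereas the 2 J1 Rif1 shRNA arrays lay on either side of the J1 controls. The F1 log2 change of 0.62 (SE 0.197, limma adjusted p = 0.0591) did not pass, nor did that of the second probe set (0.35, adjusted p = 0.0789). With the F1 arrays fitted without the J1 arrays it did pass (adjusted p = 0.00396), as it did on the deposited values (0.0153), and over all alternatives the adjusted p ran from 0.00307 to 0.365.

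Col3a1, the chain of type III collagen, which accompanies type I in extensible tissues, read 101 and 125 on F1 control arrays and 412 and 316 on F1 Rif1 shRNA arrays. On J1 control arrays it read 39.1 and 32.7, and on J1 Rif1 shRNA arrays 43.7 and 40.5, below the 40th percentile of every J1 array (46.7 to 52.7). It rose in F1 by 1.27 on the log2 scale (SE 0.138, 2.40-fold, limma adjusted p = 0.000115). The J1 difference was 0.15 (adjusted p = 0.640).

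Type V collagen is incorporated into type I fibrils and helps to start their assembly, and both of its tested chains rose in F1, while Col5a3 was too dim to be tested. Col5a1 read 191 and 207 on F1 control arrays and 561 and 533 on F1 Rif1 shRNA arrays, a log2 change of 1.18 (SE 0.166, 2.27-fold, limma adjusted p = 0.000687). On J1 arrays it read 247 and 203 in controls and 175 and 268 with Rif1 shRNA, groups that overlap completely. Of its other 2 probe sets, 1 rose in F1 (0.92, adjusted p = 0.000470) and 1 did not pass (0.19, adjusted p = 0.353).

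Col5a2 moved in opposite directions in the 2 settings. It read 159 and 167 on F1 control arrays against 682 and 618 on F1 Rif1 shRNA arrays, and 249 and 218 on J1 control arrays against 145 and 121 on J1 Rif1 shRNA arrays. The groups did not overlap in either setting. It rose by 1.64 in F1 (SE 0.132, 3.12-fold, limma adjusted p = 1.32e-05), the largest log2 change of any collagen in this contrast. It fell by 0.90 in J1 (SE 0.132, adjusted p = 0.00614), where the adjusted p was 0.0544 without J1 control replicate 1. The second Col5a2 probe set rose in F1 by 0.81 (adjusted p = 0.00100) and gave -0.37 in J1 (adjusted p = 0.141).

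Col11a1, a chain of the type XI collagen found in cartilage fibrils, was dim, with 32.2 and 35.8 on F1 control arrays, 60.6 and 61.4 on F1 Rif1 shRNA arrays, and 29.1 to 36.0 on the 4 J1 arrays. Only the F1 Rif1 shRNA arrays stood out. It rose in F1 by 0.54 (SE 0.103, limma adjusted p = 0.00441), a call lost without F1 control replicate 1 (log2 change 0.48). Without either F1 Rif1 shRNA array, or with a filter at the 60th percentile, Col11a1 no longer entered the test. The remaining fibrillar genes did not pass in either setting. Col2a1, the main collagen of cartilage, had an F1 log2 change of 0.29 (adjusted p = 0.106), Col27a1 0.28 (0.373) and Col11a2 -0.19 (0.321).

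**Figure D2:**
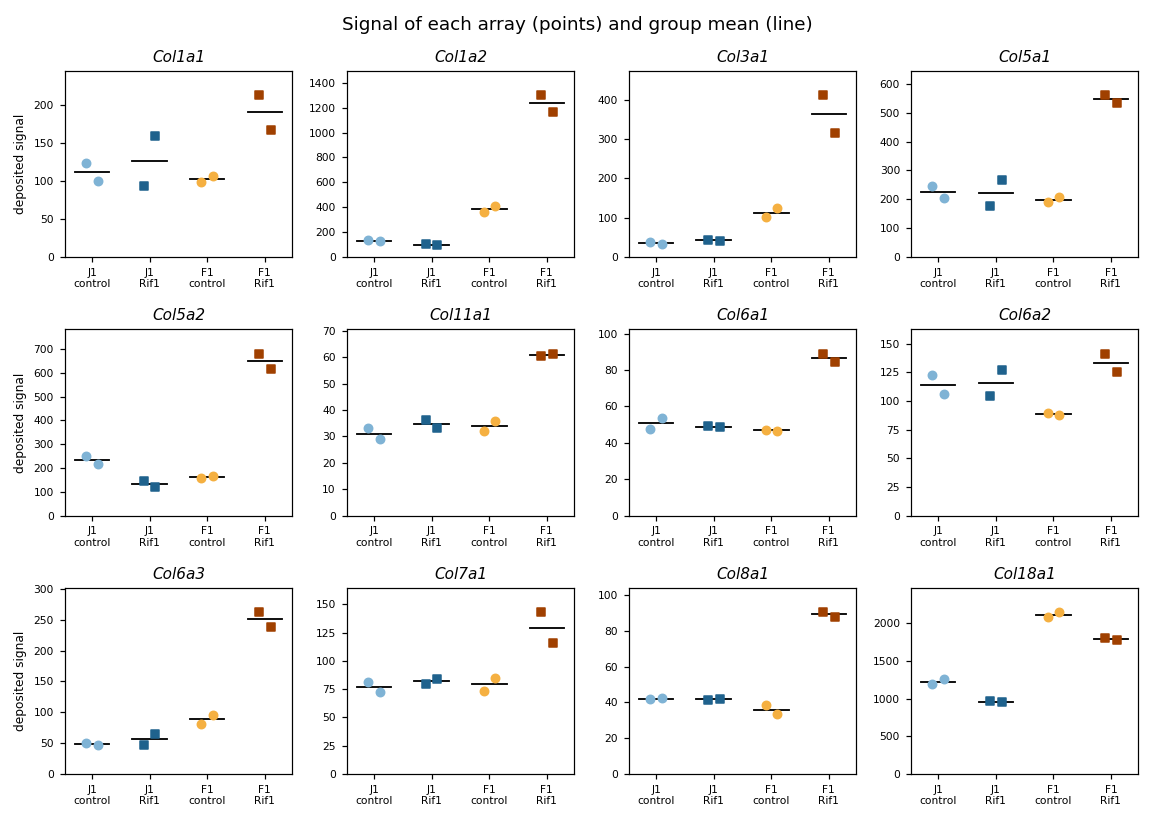
Deposited signal on each array (points; lines, group means; linear axes that start at 0) for the collagens described by array, from Col1a1 to Col18a1. For Col1a2 the F1 Rif1 shRNA arrays read 1301 and 1168 against 361 and 410 in F1 controls. Both J1 Rif1 shRNA arrays of Col1a2 lay below both J1 controls, a change that did not pass. Col5a2 is the gene that passed in both settings in opposite directions.

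Type VI collagen is a microfibril that links cells to the surrounding matrix. Of its 4 tested genes, 3 rose in F1, beside 10.6% of all genes tested (3 of 5 with the filter removed, beside 8.27%). Col6a3 read 81.7 and 95.7 on F1 control arrays and 262 and 239 on F1 Rif1 shRNA arrays, and on J1 arrays 50.1 and 47.1 in controls and 47.6 and 65.3 with Rif1 shRNA. The F1 groups were well apart and the J1 groups overlapped. Its F1 log2 change of 1.09 (SE 0.125, 2.13-fold, limma adjusted p = 0.000169) was the largest of the class.

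Col6a1 read 47.1 and 46.6 on F1 control arrays, 89.0 and 84.5 on F1 Rif1 shRNA arrays, and 47.8 to 53.5 on the 4 J1 arrays. It rose in F1 by 0.59 (SE 0.115, limma adjusted p = 0.00523). Without F1 Rif1 shRNA replicate 1 the adjusted p was 0.0632. Col6a2 read 89.6 and 88.1 on F1 control arrays, 141 and 125 on F1 Rif1 shRNA arrays, 123 and 106 on J1 control arrays, and 104 and 127 on J1 Rif1 shRNA arrays. It rose in F1 by 0.39 (SE 0.114, adjusted p = 0.0411), a call that was lost in 6 of 21 alternatives, each of the 4 F1 arrays left out among them (adjusted p = 0.125 to 0.338). Its second probe set did not pass (0.25, adjusted p = 0.152). Col6a4 gave 0.43 in F1 (limma adjusted p = 0.0502) and did not pass. The second Col6a4 probe set went the other way (-0.20, adjusted p = 0.358).

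Col7a1, the chain of the anchoring fibrils that fasten epithelia to connective tissue, read 73.7 and 85.0 on F1 control arrays and 143 and 115 on F1 Rif1 shRNA arrays. The J1 arrays read 81.2 and 72.8 in controls and 79.3 and 84.3 with Rif1 shRNA, and overlapped. It rose in F1 by 0.48 (SE 0.117, limma adjusted p = 0.0187), and the call was lost with the replicate number as a block (0.0701), without either F1 control array (0.171 and 0.0651) and without F1 Rif1 shRNA replicate 1 (0.256).

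Col8a1, which forms the short-chain networks of vessel walls and the cornea, read 38.3 and 33.6 on F1 control arrays and 90.5 and 87.9 on F1 Rif1 shRNA arrays, and 41.5 to 42.4 on the 4 J1 arrays. It rose in F1 by 0.86 (SE 0.105, 1.82-fold, limma adjusted p = 0.000249). The second Col8a1 probe set rose by 0.36 (adjusted p = 0.0429). Without either F1 Rif1 shRNA array, the brighter probe set no longer entered the test, and the call was lost (adjusted p up to 0.217). Its partner Col8a2 did not pass (0.02, adjusted p = 0.945).

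Col18a1 moved the other way. It encodes a basement membrane collagen whose end fragment is endostatin. It read 1193 and 1256 on J1 control arrays and 970 and 952 on J1 Rif1 shRNA arrays, and 2080 and 2150 on F1 control arrays and 1807 and 1783 on F1 Rif1 shRNA arrays. In both settings the Rif1 shRNA arrays lay below the controls, without overlap. It fell by 0.32 in J1 (SE 0.0565, limma adjusted p = 0.0137) and by 0.28 in F1 (adjusted p = 0.00652), and the difference between the 2 changes did not pass the test (0.04, SE 0.0800, adjusted p = 0.822). The J1 call was lost in 5 of 21 alternatives, among them without J1 control replicate 1 (0.0526) or 2 (0.0979). The F1 call was lost in 4, with median centring (0.0723) and without F1 control replicate 2 (0.0736) or F1 Rif1 shRNA replicate 1 (0.0669) or 2 (0.0773). A second Col18a1 probe set fell in J1 by 0.44 (adjusted p = 0.00322) and gave -0.18 in F1 (adjusted p = 0.0628).

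Of the 8 fibril-associated collagens, 0 passed in either direction by limma in F1, beside 10.6% higher and 8.2% lower of all genes tested. At an unadjusted p under 0.05 in limma, 1 was higher and 1 lower. With 8 genes, these counts show nothing particular to the class. The F1 log2 changes of the 8 ran from -0.24 (Col9a3, limma adjusted p = 0.166) to 0.25 (Col12a1, adjusted p = 0.181). Col12a1 depended on the probe set. The one with the highest mean read 53.7 and 58.0 on F1 control arrays and 71.7 and 74.0 on F1 Rif1 shRNA arrays. Another read 61.2 and 58.9 on F1 control arrays and 184 and 237 on F1 Rif1 shRNA arrays, and rose by 1.27 (adjusted p = 3.53e-05). The third gave -0.14 (adjusted p = 0.643).

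Among the transmembrane collagens, Col13a1 (0.13), Col23a1 (-0.19) and Col25a1 (-0.02) did not pass in F1, and neither did Col15a1 (0.11), the other multiplexin besides Col18a1, or Col26a1 (0.01). In F1 the groups overlapped for Col23a1, Col25a1 and Col26a1, whereas for Col13a1 and Col15a1 both Rif1 shRNA arrays lay above both controls. How many of all genes separate in this way was not counted, so it is no sign of a change in these genes.

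**Figure D3:**
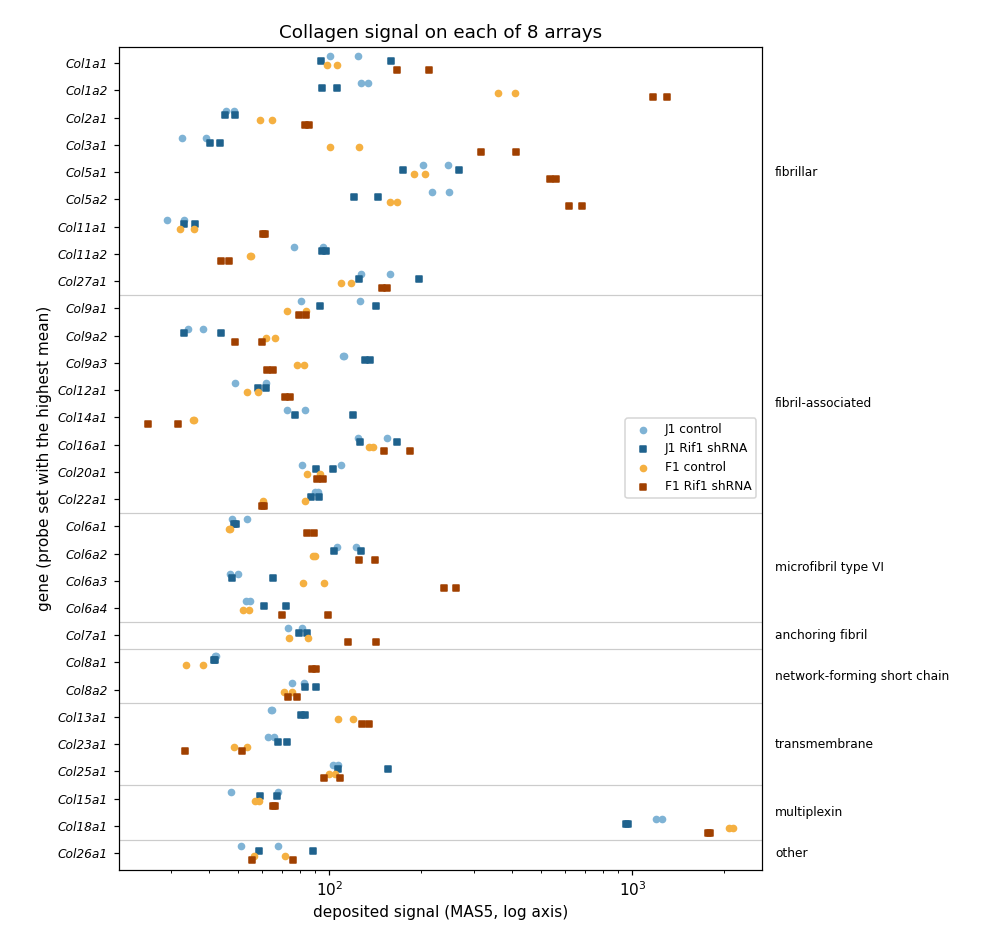
Deposited signal on each of the 8 arrays (log axis) for the 30 tested collagen genes, each at the probe set with the highest mean, grouped by class (circles, control; squares, Rif1 shRNA; blue, J1; orange and brown, F1). Most genes lie below 200 on every array, and the F1 Rif1 shRNA arrays lie apart to the right for Col1a2, Col3a1, Col5a1, Col5a2 and Col6a3.

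**Figure D4:**
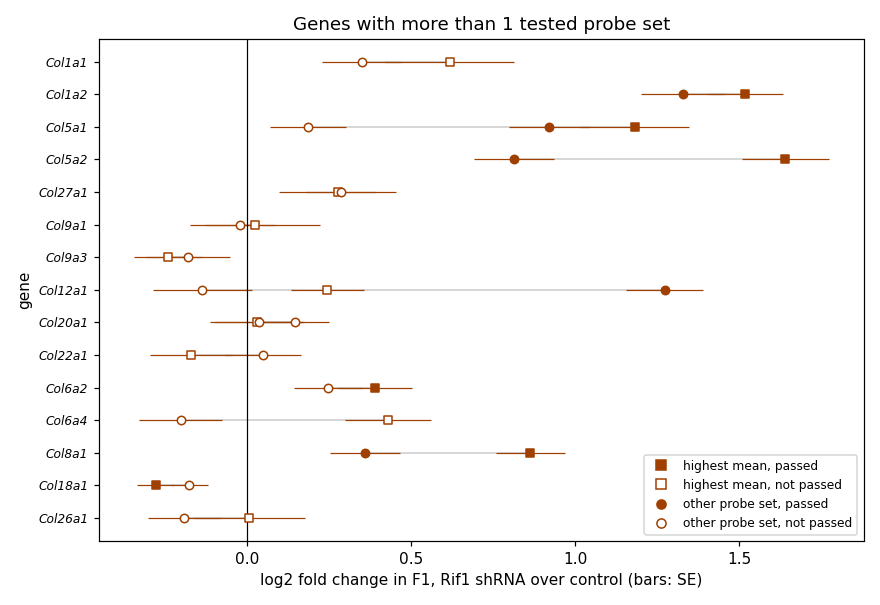
F1 log2 fold change of Rif1 shRNA over control (bars, standard errors from limma) for each tested probe set of the 15 collagen genes that have more than 1, with squares for the probe set with the highest mean and circles for others; filled symbols passed. Both Col1a2 probe sets lie above 1.3, whereas those of Col12a1 run from -0.14 to 1.27.

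In J1, 2 of 30 collagens fell, beside 2.17% of all genes tested, and 0 rose, beside 1.86%, where at an unadjusted p under 0.05 in limma 2 were higher and 3 lower. Without the filter the 2 that fell were 5.56% of 36 genes, beside 1.43%, and 0 rose, beside 1.32%. The median log2 change of the 30 was 0.08, beside 0.01 over all genes tested. The actin 3′ to 5′ signal ratio, a sign of RNA quality, was 2.61 to 2.71 on J1 control arrays, 2.17 to 2.18 on J1 Rif1 shRNA arrays and 1.33 to 1.41 on F1 arrays, so it was lower with the knockdown in J1. Its part in the J1 results was not tested. The residual SD was also larger in J1 (0.115) than in F1 (0.0658), while the fit shares 1 spread between them.

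The difference between the F1 and the J1 change was tested directly, and 7 of 30 collagens passed as higher in F1, beside 6.25% of all genes tested. Without the filter this was 19.4% of 36 genes, against 4.62%. The 7 were Col5a2 (2.54, limma adjusted p = 2.99e-05), Col1a2 (1.98, 6.09e-05), Col5a1 (1.23, 0.00861), Col3a1 (1.12, 0.00532), Col6a3 (0.96, 0.00719), Col8a1 (0.91, 0.00371) and Col6a1 (0.67, 0.0275). None passed as lower, beside 4.37% of all genes (3.14% without the filter), and 1 was lower at an unadjusted p under 0.05. Col11a1, Col6a2 and Col7a1 rose in F1 but did not pass the test of the difference (adjusted p = 0.0855, 0.149 and 0.138). Without F1 Rif1 shRNA replicate 1, 4 passed as higher, and Col6a3 was among those lost (0.0535).

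Between the 2 control groups, 6 of 30 collagens were higher and 10 lower in F1, beside 27.6% and 38.4% of all genes tested, so the counts show nothing particular to collagens. Col3a1 (1.23) and Col1a2 (0.90) were higher in F1 controls and Col5a2 (-0.98) lower. Col5a1 (-0.70) was lower too, but did not pass on the deposited values (-0.16, limma adjusted p = 0.368), with normalization within each setting (-0.13, 0.441) or with median centring (-0.20, 0.189). The scaling bears on this: the median difference over all probe sets was -0.02 after quantile normalization but 0.30 on the deposited values, where 7 collagens were higher and 5 lower. Strain and culture cannot be told apart here.

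The proteins that fold, cut, crosslink and bind collagen were followed in 42 tested genes. In F1, 17 of the 42 rose, and 0 fell by limma (1 was lower at an unadjusted p under 0.05), with a median log2 change of 0.27. This was 40.5% higher, beside 10.6% of all genes tested, and 0% lower, beside 8.2%. In J1, 1 rose (2.38%, beside 1.86% of all genes tested) and 2 fell (4.76%, beside 2.17%).

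Among enzymes and chaperones of the new chain, 4 of 16 rose in F1 and 0 fell, beside 10.6% and 8.2% of all genes tested. The lysyl hydroxylase Plod2 read 319 and 398 on F1 control arrays and 719 and 732 on F1 Rif1 shRNA arrays (0.88, limma adjusted p = 0.000372). The collagen chaperone Serpinh1 read 1104 and 1111 against 1743 and 1602 (0.55, 0.00171). P4hb, a subunit of prolyl 4-hydroxylase, rose in F1 (0.33, 0.000855) and in J1 (0.24, 0.0230), and the catalytic subunit P4ha2 rose in F1 (0.78, 0.00865). In the secretion list of 5 genes, 0 passed in F1 by limma, beside 10.6% higher and 8.2% lower of all genes tested. At an unadjusted p under 0.05 in limma, 1 was higher and 1 lower. In F1, Ctage5 gave -0.23, Sec24d 0.23 and Creb3l2 0.13. The coat protein Sec23a fell in J1 (-0.35, limma adjusted p = 0.0311).

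Outside the cell, the procollagen C-proteinase Bmp1 read 94.6 and 116 on F1 control arrays and 310 and 304 on F1 Rif1 shRNA arrays, a rise of 1.14 (limma adjusted p = 4.43e-05). Pcolce2, an enhancer of that cleavage, rose (0.48, 0.00160) and its relative Pcolce did not pass (0.02). Of the 4 tested crosslinking enzymes, 3 rose in F1, beside 10.6% of all genes tested. Lox rose from 92.5 and 89.8 to 310 and 393 (1.45, limma adjusted p = 1.31e-05). Loxl3 (0.73) and Loxl1 (0.49) rose too, and Loxl4 (0.03) did not pass. Of 6 proteins that bind fibrils, 4 rose, beside 10.6% of all genes tested. They were biglycan (Bgn) from 1067 and 1046 to 2886 and 2686 (1.39, 3.44e-06), Dcn (1.09), Thbs2 (0.96) and Sparc (0.77). For each of those that rose, both F1 Rif1 shRNA arrays lay above both F1 controls. Genes chosen for passing in this contrast would mostly do so, and this adds no further evidence.

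Among the matrix proteases, Mmp9 (0.85) and Mmp14 (0.56) rose in F1 and Mmp2 (0.27) did not pass. Of 5 collagen receptors, the integrin chain Itgb1 (0.58, limma adjusted p = 0.00193) and the discoidin receptor Ddr2 (0.40, 0.0300) rose in F1, and the collagen uptake receptor Mrc2 did not pass (0.35, 0.0502). The receptors that rose were 40% of this list, beside 10.6% of all genes tested. The epithelial discoidin receptor Ddr1 fell in J1 (-0.58, 0.00999).

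Most feeder fibroblast markers rose in F1, where 33.3% of the tested collagens rose. A total of 24 markers were tested, and 20 rose and 1 (Tgfbi, -0.67) fell in F1, beside 10.6% and 8.2% of all genes tested, with a median of 1.08. Their summed normalized signal was 18630 to 18992 on F1 control arrays and 36422 to 37435 on F1 Rif1 shRNA arrays, while it was 20380 to 21676 on J1 control arrays and 18146 to 18334 on J1 Rif1 shRNA arrays. The collagen genes together summed to 4070 to 4200 on F1 control arrays and 5395 to 5852 on F1 Rif1 shRNA arrays. Col18a1, which fell, makes up much of this sum of signals. Signals of different probe sets are not on 1 scale, so its part is not its part of collagen RNA. As deposited, Col18a1 read 2080 and 2150 beside collagen sums of 4725 to 4890 on F1 control arrays. On F1 Rif1 shRNA arrays it read 1807 and 1783 beside 6696 to 7311. Postn, a fibroblast matrix protein, read 125 and 132 on F1 control arrays and 431 and 394 on F1 Rif1 shRNA arrays, and Thy1, a fibroblast surface protein, 127 and 143 against 392 and 349. Fn1 (0.12), Pdgfrb (0.27) and Fap (0.04) did not pass, and no marker was listed at 0.

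In J1, 7 of the 24 feeder markers fell and 0 rose by limma (0 at an unadjusted p under 0.05), beside 2.17% and 1.86% of all genes tested. Those that fell include smooth muscle actin Acta2 (-1.88) and Tagln (-1.01). The J1 median was -0.10 over the feeder markers and 0.08 over the 30 collagens, of which 20 had a change above 0. In bulk RNA, fewer cells of a type and less RNA per cell cannot be told apart. The part of feeder cells in the collagen results was not tested. Of 4 tested chondrocyte markers, 0 rose in F1 by limma (1 higher at an unadjusted p under 0.05) and 1 (Matn3, -0.44) fell. Of all genes tested, 10.6% rose and 8.2% fell. Of 15 primitive endoderm markers, 4 rose (Pdgfra, Lamb1, Col4a1 and Col4a2) and 2 fell (Lama1 and Cubn) in F1. This stands beside 10.6% and 8.2% of all genes tested. Pdgfra is also in the feeder fibroblast list, so the 2 lists are not separate. In J1, 3 of the 15 fell (Lama1, Col4a1 and Col4a2), beside 2.17%. Of the 12 pluripotency markers, 1 (Tdgf1) rose and 6 fell in F1, beside 10.6% and 8.2% of all genes tested, with a median of -0.27.

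**Figure D5:**
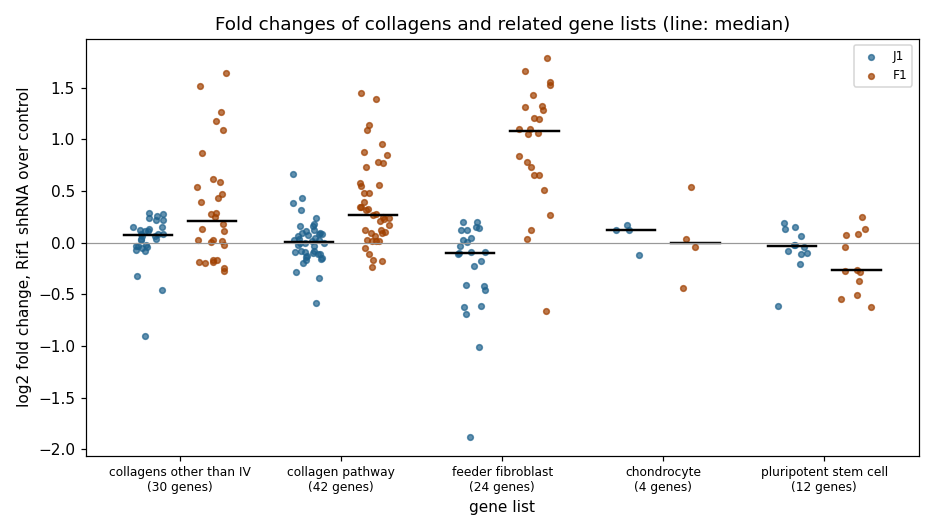
Log2 fold change of Rif1 shRNA over control (y axis) for each tested gene of the collagens, the collagen pathway lists and 3 lists of cell type markers (points, genes; black lines, medians; blue, J1; brown, F1). The F1 median is 0.21 for the collagens, 0.27 for the pathway and 1.08 for the feeder fibroblast markers.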

How the data were processed

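RNA was hybridised to Affymetrix arrays. The authors deposited intensity signals, 1 per probe set and array, made with MAS5 per the submitters' processing notes (version not given in the sources used here). Of 45101 probe sets, 64 were controls and were left out after normalization. Signals were quantile normalized as log2(signal + 18), 18 being their 10th percentile, and probe sets above the 40th percentile of the array on at least 2 arrays were tested. A model of 4 group means over the 8 arrays was fitted in R 4.3.3 with limma 3.58.1 (eBayes with a trend, 6.94 prior and 4 residual degrees of freedom, two-sided, Benjamini-Hochberg). The fit was tested on simulated data. Each gene stands for its tested probe set with the highest mean. Values on every array were given for collagens that passed in J1 or F1 and for Col1a1, Col1a2 and Col3a1. From each pathway list the 3 genes with the smallest F1 p and those passing in J1 were named. P4ha2, Thbs2, the markers named and the Col12a1 probe sets were picked with their values in view. The collagens and all lists were chosen with earlier results of these data known. Alternatives changed the offset, scaling, filter, arrays fitted, trend, probe set and block, and left out each array in turn. Array number limits precision. Plots used Python 3.11.15 and matplotlib 3.10.9.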

Additional observations from a re-analysis of the deposited data

Results flagged for a closer look

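The change with Rif1 shRNA differed between F1 and J1 in 7 collagen genes by a test of the difference itself (limma, adjusted p under 0.05, 2 arrays a group). On the log2 scale the F1 change exceeded the J1 change by 1.98 in Col1a2, 1.12 in Col3a1, 1.23 in Col5a1, 2.54 in Col5a2, 0.67 in Col6a1, 0.96 in Col6a3 and 0.91 in Col8a1. Col5a2 was the gene among them that passed in both settings, in opposite directions. For Col6a1 the difference lost its call in 7 of 18 alternatives (the replicate block, and 6 of the arrays left out in turn, all but J1 control replicate 1 and J1 Rif1 shRNA replicate 1), and for Col8a1 in 2 of 18, those without either F1 Rif1 shRNA array. Strain, delivery and time in culture differ with the setting and cannot be told apart.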

How the results depend on the processing

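Col1a2, Col3a1, Col5a1, Col5a2 and Col6a3 passed as higher in F1 in every alternative run. The number of collagens that rose in F1, 10 of 30, was 13 on the deposited values, 14 with the F1 arrays alone and 8 with a filter at the 60th percentile. Leaving out each array in turn gave 5 to 12 (5 without F1 Rif1 shRNA replicate 1), and the number that fell 0 to 1 (0 with F1 control replicate 2, F1 Rif1 shRNA replicate 1 or F1 Rif1 shRNA replicate 2 left out); median centring gave 0 that fell. For the difference between settings, leaving out an array gave 4 to 7 higher (4 without F1 Rif1 shRNA replicate 1) and 0 to 2 lower (2 without J1 Rif1 shRNA replicate 1), and 1 was lower on the deposited values and without the trend. In J1, leaving out an array gave 0 to 2 higher (2 without J1 Rif1 shRNA replicate 1) and 0 to 3 lower (0 without J1 control replicate 1, 1 without J1 control replicate 2), and 1 fell with the J1 arrays alone, without the trend, and with those arrays also normalized on their own (chosen after seeing the data). Between the controls, 10 were lower, but 5 on the deposited values, 6 with normalization within each setting, and 6 to 12 when an array was left out (6 without F1 control replicate 2). That difference changed sign with all tested probe sets of a gene averaged in Col18a1 (-0.53), Col6a4 (-0.36) and Col8a1 (0.23), and in Col8a1 without F1 Rif1 shRNA replicate 1 (0.54) or 2 (0.54), where another probe set stands for the gene; leaving out each array gave -0.14 to 0.54 there. Other causes were not tested. A lone array left in a group is assumed to vary like the others.

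Deviations of same-numbered arrays correlated at -0.339 in J1 and 0.194 in F1. These values differ in sign and do not settle whether replicate numbers pair the arrays. With a replicate block, 8 collagens rose in F1 (Col6a2 and Col7a1 were lost), 2 fell in J1, and 6 passed for the difference. With the numbers crossed, a fit chosen after seeing the data, 12 rose in F1 and 3 fell in J1. The block gives no value for control against control.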

Other observations

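Within the F1 Rif1 shRNA group, 25 of the 30 collagens read higher on replicate 1 than on replicate 2, beside 52.8% of all genes tested. Within the F1 controls, 20 of 30 read higher on replicate 2, beside 45.8%. In J1, 17 of 30 read higher on replicate 1 in controls and 18 of 30 with Rif1 shRNA. The median absolute difference between the 2 arrays of a group over the collagens ran from 0.0654 on the log2 scale in the F1 Rif1 shRNA group to 0.18 in the J1 Rif1 shRNA group.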
